A study of Mus musculus with 20 samples.

Results

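The comparison described here sets whole mouse embryos labelled E16.5 against whole mouse embryos labelled E14.5 (days of embryonic development), 2 days apart in late gestation. All arrays labelled with these stages were taken, 4 of the 20 arrays of the series, with 2 arrays for E16.5 and 2 for E14.5. Both groups were wild-type C57BL/6 embryos of mixed sex, free of specific pathogens, with the amnion left out, and each array carried total RNA pooled from several embryos. The arrays were Affymetrix Mouse Genome 430 2.0 chips, on which a gene is read by sets of short probes, and the values are MAS5 signals on a linear scale. In RNA of whole embryos, more cells of a type and more RNA per cell cannot be told apart. Nothing in the labels says that the pools came from separate litters, so p-values measure the spread between pools, estimated over all 20 arrays. Precision is limited by having 2 arrays in each group.

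Around these stages the mouse epidermis begins to turn from a stratified, water-permeable sheet covered by a temporary periderm into a cornified barrier. Keratinocytes leave the basal layer, switch from keratins 5 and 14 to keratins 1 and 10, and build a cornified envelope in which loricrin, involucrin and small proline-rich proteins are cross-linked by transglutaminases and sealed with lipids. In the same days the lung starts to make surfactant, the gut lining forms villi, the pancreas fills with digestive enzymes, the liver takes up more metabolic work, and muscle, fat, bone and the white blood cell lines mature.

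Of 18193 genes with a probe set annotated to a single symbol, 14044 exceeded the array median on at least 2 of the 20 arrays and were tested. At an adjusted p under 0.05 (limma, Benjamini-Hochberg over all 14044 genes) and at least a 2-fold difference, 506 genes (3.6% of those tested) were higher at E16.5 and 25 (0.178%) were lower. Changes are differences of log2(signal + 25.9), E16.5 minus E14.5, which understate the change of dim genes, and their median over all genes was -0.02. In all, 181 genes rose at least 4-fold and 69 at least 8-fold, while 2 genes fell at least 4-fold. Of the 506 genes that rose, 95 lay below the 25th percentile of signal on both E14.5 arrays, 206 lay above the median on both, and the other 205 lay between. On both E16.5 arrays, 437 of them lay above the median. Fewer genes were called higher when any 1 of the 4 arrays was left out, and the number called lower went up or down. With 1 array left in a stage precision is lower, so a lost call does not single out an array. In such fits the lone array of a stage is assumed to vary like the arrays of the other stages.

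All 4 arrays were scaled to a trimmed mean of 500. The median signal was 164 and 178 at E16.5 and 168 and 169 at E14.5, and the ratio of 3' to 5' actin probes was 1.21 and 1.28 at E16.5 and 1.18 and 1.29 at E14.5. Replicate arrays correlated with an r of 0.984 at E16.5 and 0.989 at E14.5 over log2 values, and arrays of different stages with 0.939 to 0.949. In both stages the array numbered 2 had the brighter hybridisation spike-ins (5403 against 2816 at E16.5, and 5436 against 2334 at E14.5) and the higher maximum signal (51397 against 30741 at E16.5, and 43913 against 26357 at E14.5). Of 12 trophoblast, decidua and yolk sac genes with a probe set, 8 were tested and 1 was called higher, Spink1, a protease inhibitor that the pancreas and gut also make (1781 and 1602 at E16.5 against 509.7 and 480.2 at E14.5, 1.72 ± 0.24, adjusted p = 8.3e-05). The summed signal of all 8 tested genes was 2738.5 and 2622.5 at E16.5 against 1468.7 and 1407.4 at E14.5. Without Spink1, left out after its value was seen, the sum of the 7 others was 958 and 1021 at E16.5 against 959 and 927 at E14.5. The list's defining gene Prl8a2, a prolactin-like hormone of the decidua, had overlapping signals of 27.7 and 68.5 at E16.5 and 59.7 and 38.1 at E14.5. The X-linked Xist, transcribed in female cells, had 5162 and 5312 at E16.5 against 5688 and 7531 at E14.5, and was not called (-0.32 ± 0.41 (SE), adjusted p = 0.71).

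The contrast of E18.5 with E12.5 uses other arrays than the contrast of E16.5 with E14.5. It is not independent of it, since all arrays entered the filter on low values, the choice of probe set and the estimate of spread. In E18.5 against E12.5, 2139 genes (15.2%) were higher and 905 (6.44%) lower. Of the 506 genes that rose between E14.5 and E16.5, 495 (97.8%) were also higher at E18.5 than at E12.5, which is 23.1% of those 2139, none was lower and 11 were called neither way. Of the 25 that fell, 18 (72.0%) were also lower at E18.5 than at E12.5, which is 2.0% of those 905.

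Genes were grouped in 64 lists of tissue and process genes, of which 924 genes were tested. Of these, 208 rose and 6 fell, with a median change of 0.36. Among the skin lists, 9 lists with 182 genes, 166 of them with a probe set and 140 tested, held 73 genes that rose and none that fell, with a median of 1.30, and 10 of the 25 largest rises of the whole experiment were in them. Among the other lists, 16 of 25 tested enterocyte genes, 13 of 20 exocrine pancreas genes, 12 of 21 adipocyte genes and 5 of 7 mast cell genes rose. The lists of neurons, endothelium, kidney, erythroid cells and the cell cycle held no gene called higher. Over all genes tested, 3.6% were called higher and 0.178% lower. At those shares, lists of this size (17 to 33 tested genes) hold few called genes or none. Counts of list members given below are to be read against these shares. A gene enters the test by exceeding the array median on any 2 arrays, and for a tissue that switches on late those can be the E16.5 or E18.5 arrays, so shares are of tested genes and not of all genes of a tissue.

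**Figure D1:**
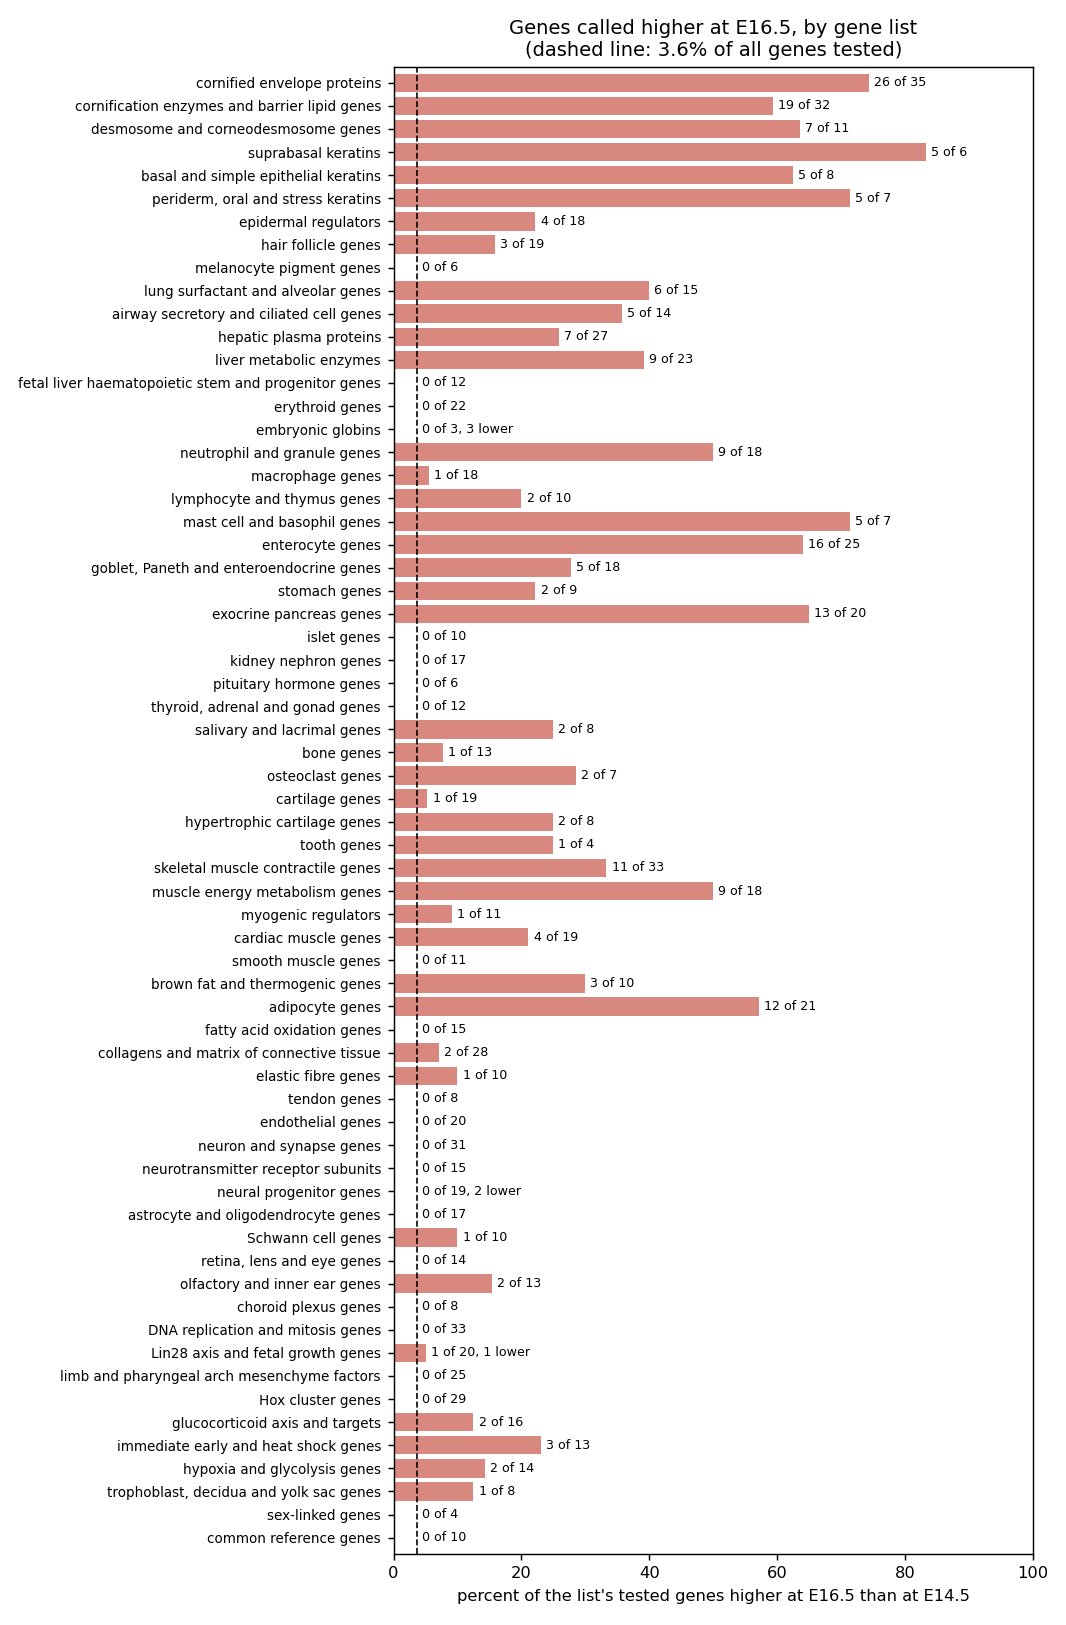
Percent of the tested genes of each of 64 gene lists that were called higher at E16.5 than at E14.5 (horizontal bars), with the number called and the number tested beside each bar. The dashed line is the share over all genes tested, 3.6%. The lists of the cornified envelope (26 of 35), suprabasal keratins (5 of 6), mast cells (5 of 7), exocrine pancreas (13 of 20) and enterocytes (16 of 25) stand far to the right of it, and those of neurons, endothelium, kidney and the cell cycle stand at 0.

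Of 40 cornified envelope genes with a probe set, 35 were tested. All 35 were higher at E16.5 in the fit, and 26 of them were called. Their median change was 2.10, against -0.02 over all genes tested. Hrnr, which encodes hornerin, a filaggrin-like protein of the granular layer, had the largest rise of the genes named here. Its signal was 11003 and 11343 on the E16.5 arrays, against 16.9 and 19.2 on the E14.5 arrays. The groups stood far apart and the replicates of each were close (8.00 ± 0.27, adjusted p = 1.9e-13). Lor, loricrin, the main mass of the envelope, had 9894 and 14577 at E16.5, against 203 and 287 at E14.5 (5.49 ± 0.24, adjusted p = 1.1e-11). Crct1, a cysteine-rich protein encoded next to the late envelope genes, had 1750.1 and 1556 at E16.5 against 39.6 and 79.1 at E14.5 (4.34 ± 0.47, adjusted p = 3.5e-06). Ivl, involucrin, which lays down the first scaffold of the envelope, had 635 and 750.0 at E16.5 against 14.2 and 10.8 at E14.5 (4.22 ± 0.36, adjusted p = 1.2e-07). These 4 genes were named for the size of their rise on these same arrays, so the separation of their stages is no further support. Flg, which encodes profilaggrin, the precursor of the proteins that bundle keratin in the outer layers, was called as well. It had 116 and 88.7 at E16.5, against 8.74 and 4.20 at E14.5 (1.99 ± 0.35, adjusted p = 0.00085), while the E18.5 arrays read 9434 and 9513. With a pseudocount 4 times larger its change was 0.90 and it was not called. Hrnr, by comparison, read 9973 and 10394 at E18.5.

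The start regions of 4 epidermal genes that rose, Hrnr, Lor, Krt10 and Alox12b, are shown with that of Hmga2, a chromatin protein that fell, since they show how base composition and motifs vary among genes called. Sequences are from RefSeq on GRCm38.p6, 250 bases before to 50 bases after the annotated start, 5' to 3' on the gene's strand. Capitals mark matches to TATAAA (the TATA box), TGANTCA (a site of AP-1 factors) and GGGCGG (the GC box), searched on both strands with TTGCNNCAA (a C/EBP site, which has no match in the regions shown). Matches in the regions shown do not overlap. Hrnr lies at chr3:93319499-93319798 on the plus strand, Lor at chr3:92083093-92083392, Krt10 at chr11:99389315-99389614 and Hmga2 at chr10:120476420-120476719, these on the minus strand, and Alox12b at chr11:69156822-69157121 on the plus strand.
Hrnr: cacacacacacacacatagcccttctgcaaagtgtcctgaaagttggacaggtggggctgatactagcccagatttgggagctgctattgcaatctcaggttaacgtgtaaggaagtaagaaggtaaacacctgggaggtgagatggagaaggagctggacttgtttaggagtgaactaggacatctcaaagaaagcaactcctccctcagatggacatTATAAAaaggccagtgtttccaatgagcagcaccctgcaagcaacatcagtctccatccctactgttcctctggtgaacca
Lor: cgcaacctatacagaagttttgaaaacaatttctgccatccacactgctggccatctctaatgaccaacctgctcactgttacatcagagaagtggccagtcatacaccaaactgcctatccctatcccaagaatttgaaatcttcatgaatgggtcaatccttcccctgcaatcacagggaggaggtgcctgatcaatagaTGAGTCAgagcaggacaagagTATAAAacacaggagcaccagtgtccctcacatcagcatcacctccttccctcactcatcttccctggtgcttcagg
Krt10: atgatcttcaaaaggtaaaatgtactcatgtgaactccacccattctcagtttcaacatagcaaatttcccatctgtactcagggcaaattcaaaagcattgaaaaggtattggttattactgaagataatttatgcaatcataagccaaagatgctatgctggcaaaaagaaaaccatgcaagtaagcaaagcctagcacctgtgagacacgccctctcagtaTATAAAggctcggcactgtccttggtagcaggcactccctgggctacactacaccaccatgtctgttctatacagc
Alox12b: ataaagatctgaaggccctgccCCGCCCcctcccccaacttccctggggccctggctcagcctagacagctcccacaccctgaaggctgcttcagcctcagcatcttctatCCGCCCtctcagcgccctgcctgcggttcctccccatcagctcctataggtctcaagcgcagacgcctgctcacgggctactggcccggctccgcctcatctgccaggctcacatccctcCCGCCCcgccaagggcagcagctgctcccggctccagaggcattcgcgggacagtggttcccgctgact
Hmga2: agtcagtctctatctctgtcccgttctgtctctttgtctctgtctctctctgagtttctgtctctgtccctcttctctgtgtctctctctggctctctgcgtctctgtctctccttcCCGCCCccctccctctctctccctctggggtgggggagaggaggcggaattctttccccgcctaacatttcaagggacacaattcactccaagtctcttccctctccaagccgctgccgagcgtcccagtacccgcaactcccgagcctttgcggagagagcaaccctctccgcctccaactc
The regions of Hrnr and Lor hold 1 CpG each, that of Krt10 holds 2, that of Alox12b 15 and that of Hmga2 12. Hrnr, Lor and Krt10 each hold 1 TATAAA, while Alox12b holds none and has 3 GC boxes, so genes that rose together differ in these letters. The region of the fat cell gene Adipoq, which also rose, holds none of the motifs and no CpG. Of the genes that rose and had a region in the table, 24.2% held TATAAA, 16.6% TGANTCA, 3.6% TTGCNNCAA and 24.5% GGGCGG. Over all 11293 tested genes with a region the shares were 8.4%, 5.2%, 1.7% and 61.6% in the same order, and over the whole set of 27025 regions they were 14.2%, 7.9%, 2.1% and 35.9%. The median number of CpGs was 5 in genes that rose, 11 in the 20 genes that fell and had a region, and 20 in all tested genes. A match describes letters and not a site in use, and base composition differs between the sets compared.

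Enzymes of cornification and of the barrier lipids rose in 19 of 32 tested list members, with none lower by the test and a median of 1.65. Asprv1, the protease that trims profilaggrin, had signals of 5714 and 4584 at E16.5 against 257 and 274 at E14.5 (4.14 ± 0.40, adjusted p = 5.8e-07). Spink5, an inhibitor that restrains the proteases of skin shedding, had 469 and 381 at E16.5 against 10.7 and 1.84 at E14.5 (3.82 ± 0.34, adjusted p = 2.2e-07). Alox12b, the lipoxygenase that readies ceramides for attachment to the envelope, had 329.7 and 368 at E16.5 against 1.75 and 4.89 at E14.5 (3.68 ± 0.41, adjusted p = 4.4e-06). These 3 genes were named for the size of their rise on these same arrays, so the separation of their groups is no further support. Tgm1, the membrane-bound transglutaminase that cross-links the envelope, had 439 and 421 at E16.5 against 128 and 109 at E14.5 (1.66 ± 0.38, adjusted p = 0.0068). Its call ended without either array numbered 2 (adjusted p up to 0.066) and with a pseudocount 4 times smaller. Other enzymes of the pathway did not pass the test. Tgm3, another cross-linking enzyme, had 203 and 196 at E16.5 against 119.8 and 116 at E14.5 (0.65 ± 0.49, adjusted p = 0.49). Casp14, the caspase of terminal keratinocytes, had 153 and 331 at E16.5 against 266 and 186 at E14.5, and the groups overlapped (0.03 ± 0.37, adjusted p = 0.98). Its probe set carries the suffix x_at and may bind related genes. It read 234 and 168 at E12.5 and 252 and 201 at E18.5, and whether it follows Casp14 was not tested. Abca12, the lipid transporter of lamellar granules, did not pass the filter on low values, with 87.7 and 64.7 at E16.5 against 55.9 and 38.3 at E14.5.

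Outside the envelope itself, Calm4, a calmodulin-like protein of the skin, had 8527 and 8299 at E16.5 against 102 and 103 at E14.5 (6.04 ± 0.47, adjusted p = 3.9e-08). Calml3, a related calcium sensor of epithelia, had 1731 and 1463 at E16.5 against 122 and 153 at E14.5 (3.31 ± 0.32, adjusted p = 7.7e-07). Krtap13, annotated as a keratin-associated protein, had 7274 and 7404 at E16.5 against 34.0 and 26.7 at E14.5 (7.04 ± 0.43, adjusted p = 1.2e-09).

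Desmosomes rivet keratinocytes together, and 7 of 11 tested desmosome genes rose (63.6%, against 3.6% of all genes tested), with a median of 1.57. The cadherins of the upper layers were among them. Dsc1, desmocollin 1, had 3785 and 4023 at E16.5 against 188 and 203 at E14.5 (4.15 ± 0.30, adjusted p = 1.5e-08). Dsg1a, a desmoglein 1 gene, had 1190.4 and 1126 at E16.5 against 157 and 97.4 at E14.5 (2.98 ± 0.35, adjusted p = 1.1e-05), and its close paralogue Dsg1b changed by 2.12 ± 0.37 (adjusted p = 0.00075), although probes of such similar genes may not separate them fully. Pkp1, a plaque protein that anchors these cadherins, changed by 1.67 ± 0.22 (adjusted p = 4.6e-05). Cdsn, corneodesmosin, which joins the desmosome only in the outermost layers, had 162 and 202 at E16.5 against 80.4 and 69.0 at E14.5 and was not called (1.04 ± 0.53, adjusted p = 0.25), while it read 805 and 831 at E18.5.

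Keratins were grouped by layer, and the difference between the groups was not tested. In the suprabasal list 5 of 6 tested genes rose (median 2.77), and in the basal and simple epithelial list 5 of 8 (median 1.25). Krt10 had 20888 and 29719 at E16.5, against 2772 and 2781 at E14.5 (3.15 ± 0.17, adjusted p = 1.7e-10). Its partner Krt1 had 12898 and 15489 at E16.5 against 1142 and 1339 at E14.5 (3.49 ± 0.35, adjusted p = 1.4e-06). These partners form the filaments of the suprabasal cells, and neither had overlapping groups. Krt2, a keratin of the latest layers, had 46.2 and 35.8 at E16.5 against 16 and 1.63 at E14.5, was not called (0.97 ± 0.39, adjusted p = 0.13), and read 579 and 401 at E18.5. Among basal keratins, Krt5 had 2617 and 2869 at E16.5 against 1164 and 1412 at E14.5 (1.08 ± 0.19, adjusted p = 0.00071), although the change without the E14.5 array numbered 1 was 0.94, short of 2-fold. Krt14 had 2885 and 2489 at E16.5 against 996 and 973 at E14.5 (1.42 ± 0.37, adjusted p = 0.018), a call that ended without any 1 of the 4 arrays (adjusted p 0.081 to 0.11). Krt15, a basal keratin of slowly cycling cells, changed by 1.60 ± 0.31 (adjusted p = 0.0023). Neither Krt14 nor Krt15 was called with a pseudocount 4 times smaller. Krt8, a keratin of simple epithelia and periderm, had 2093 and 1929 at E16.5 against 1284 and 958 at E14.5, a difference under 2-fold (0.84 ± 0.16, adjusted p = 0.0013).

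Keratins of the periderm, the mouth and the oesophagus rose in 5 of 7 tested genes (median 2.01). Krt13, a keratin of wet stratified linings, had 1679 and 1867 at E16.5 against 64.4 and 64.1 at E14.5 (4.32 ± 0.40, adjusted p = 4.9e-07). Its partner Krt4 had 1413 and 1284 at E16.5 against 421 and 345 at E14.5 (1.75 ± 0.32, adjusted p = 0.0011). Krt6a, a keratin of periderm and of stressed epidermis, had 2071 and 1887 at E16.5 against 203 and 274 at E14.5 (2.94 ± 0.50, adjusted p = 0.00062), and was lower again at E18.5 at 952 and 889.8. The whole-embryo RNA holds skin, mouth and gut tube at once, so these keratins cannot be assigned to a site here.

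**Figure D2:**
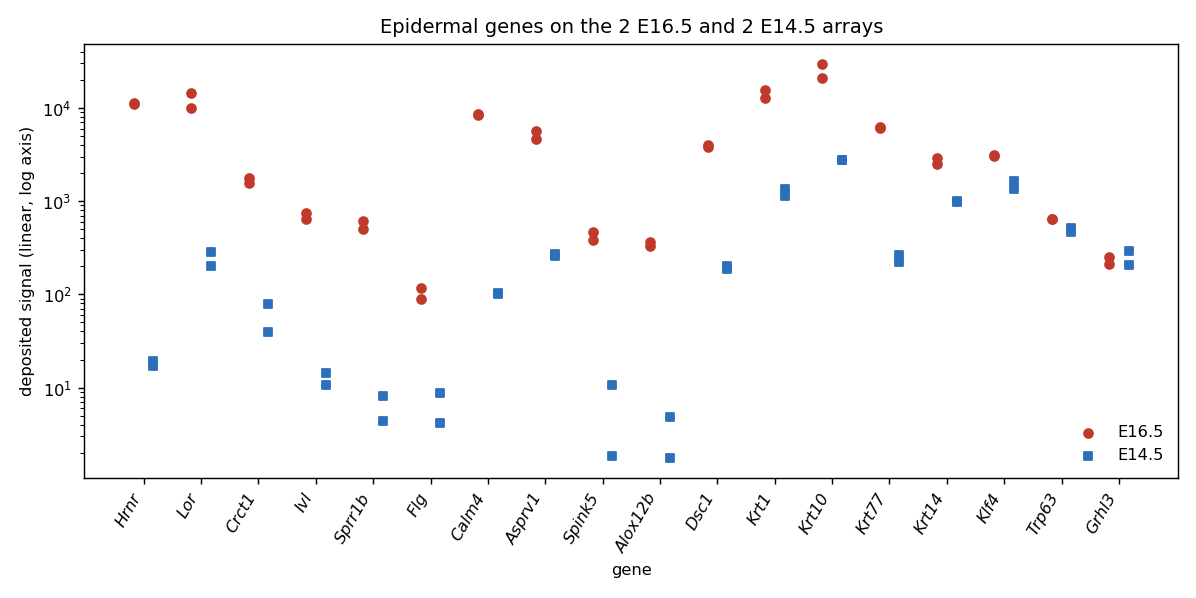
Deposited signal (linear values on a log axis) of 18 epidermal genes on each array, with the 2 E16.5 arrays as red circles on the left of each gene and the 2 E14.5 arrays as blue squares on the right. Structural genes from Hrnr to Krt77 are separated by wide gaps, while the regulators Trp63 (643 and 639 at E16.5, 516 and 471 at E14.5) and Grhl3 (210.0 and 252 at E16.5, 206 and 291 at E14.5) lie close together.

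Of 18 tested regulators of the epidermis 4 rose (22.2%, against 3.6% of all genes tested), with a median of 0.29. Trp63, the master factor of stratified epithelia, had 643 and 639 at E16.5 against 516 and 471 at E14.5 (0.36 ± 0.23, adjusted p = 0.37). Grhl3, a factor needed for the barrier in mice, had 210.0 and 252 at E16.5 against 206 and 291 at E14.5, with overlapping groups (-0.08 ± 0.28, adjusted p = 0.91). Klf4, another factor needed for the barrier, had 3080.5 and 3097 at E16.5 against 1657 and 1343 at E14.5 (1.04 ± 0.22, adjusted p = 0.0036), and its call ended without the E14.5 array numbered 2 (change 0.89, adjusted p = 0.066) and with the mean of its probe sets. Grhl1, a factor of desmosomal cadherins, changed by 1.48 ± 0.34 (adjusted p = 0.0084), Ovol1, which ends proliferation in upper cells, by 1.37 ± 0.34 (adjusted p = 0.013), and Sfn, the 14-3-3 protein of keratinocytes, by 1.35 ± 0.37 (adjusted p = 0.025). With 1 array left out, the changes were 1.30 to 1.65 for Grhl1, 1.19 to 1.55 for Ovol1 and 1.14 to 1.55 for Sfn. These 3 calls did not hold in every such fit, which leaves 1 array in a stage and so has less precision. The calls of Ovol1 and Sfn also ended with a pseudocount 4 times smaller.

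Of 19 tested hair follicle genes 3 rose (15.8%, against 3.6% of all genes tested, median 0.29), all of them inner root sheath proteins. Krt27 had 148 and 179 at E16.5 against 32.9 and 54.9 at E14.5 (1.46 ± 0.37, adjusted p = 0.016), Krt25 changed by 1.25 ± 0.35 (adjusted p = 0.026) and Tchh, trichohyalin, by 1.33 ± 0.33 (adjusted p = 0.014). With 1 array left out their adjusted p reached 0.17, 0.22 and 0.13 in the same order, and no call held in every such fit, nor with a pseudocount 4 times smaller or larger. Shh, the signal of the hair placode that is also made in many other organs, had 687 and 692 at E16.5 against 571 and 505 at E14.5 (0.35 ± 0.12, adjusted p = 0.088). None of 6 tested melanocyte genes was called. Dct, an enzyme of melanin synthesis, had 454 and 439.7 at E16.5 against 303 and 301 at E14.5 (0.53 ± 0.36, adjusted p = 0.43).

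Many of these genes are neighbours on the chromosomes. Gene order was taken from RefSeq, and the clusters were picked with the rises in view, so their counts describe and do not test. From S100a10 to S100a1 on chromosome 3, the epidermal differentiation complex, 49 genes had a probe set and 40 were tested. Of these 26 rose (65.0%, against 3.6% of all genes tested), with changes of 0.26 to 8.00 over all 40 and a median of 1.60. Lor, the Sprr genes, Ivl, the late cornified envelope genes, Flg, Hrnr and Rptn lie inside it between groups of S100 genes. Not called within it were 14 genes, among them Lce1b (0.40), Lce3b (0.43) and Kprp (0.93), named after their values were seen. In the type II keratin cluster on chromosome 15, 10 of 19 tested genes rose (52.6%), and in the type I cluster on chromosome 11, 9 of 18, with 5 and 13 further genes below the filter. The serpins of clade B on chromosome 1, many of them protease inhibitors, rose in 7 of 7 genes with a probe set between Serpinb5 and Serpinb8, by 2.05 to 3.72, led by Serpinb12 (again named after its value was seen) at 3.72 and Serpinb7 at 3.66. RefSeq lists 12 protein-coding genes in that stretch, so 5 have no value here.

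**Figure D3:**
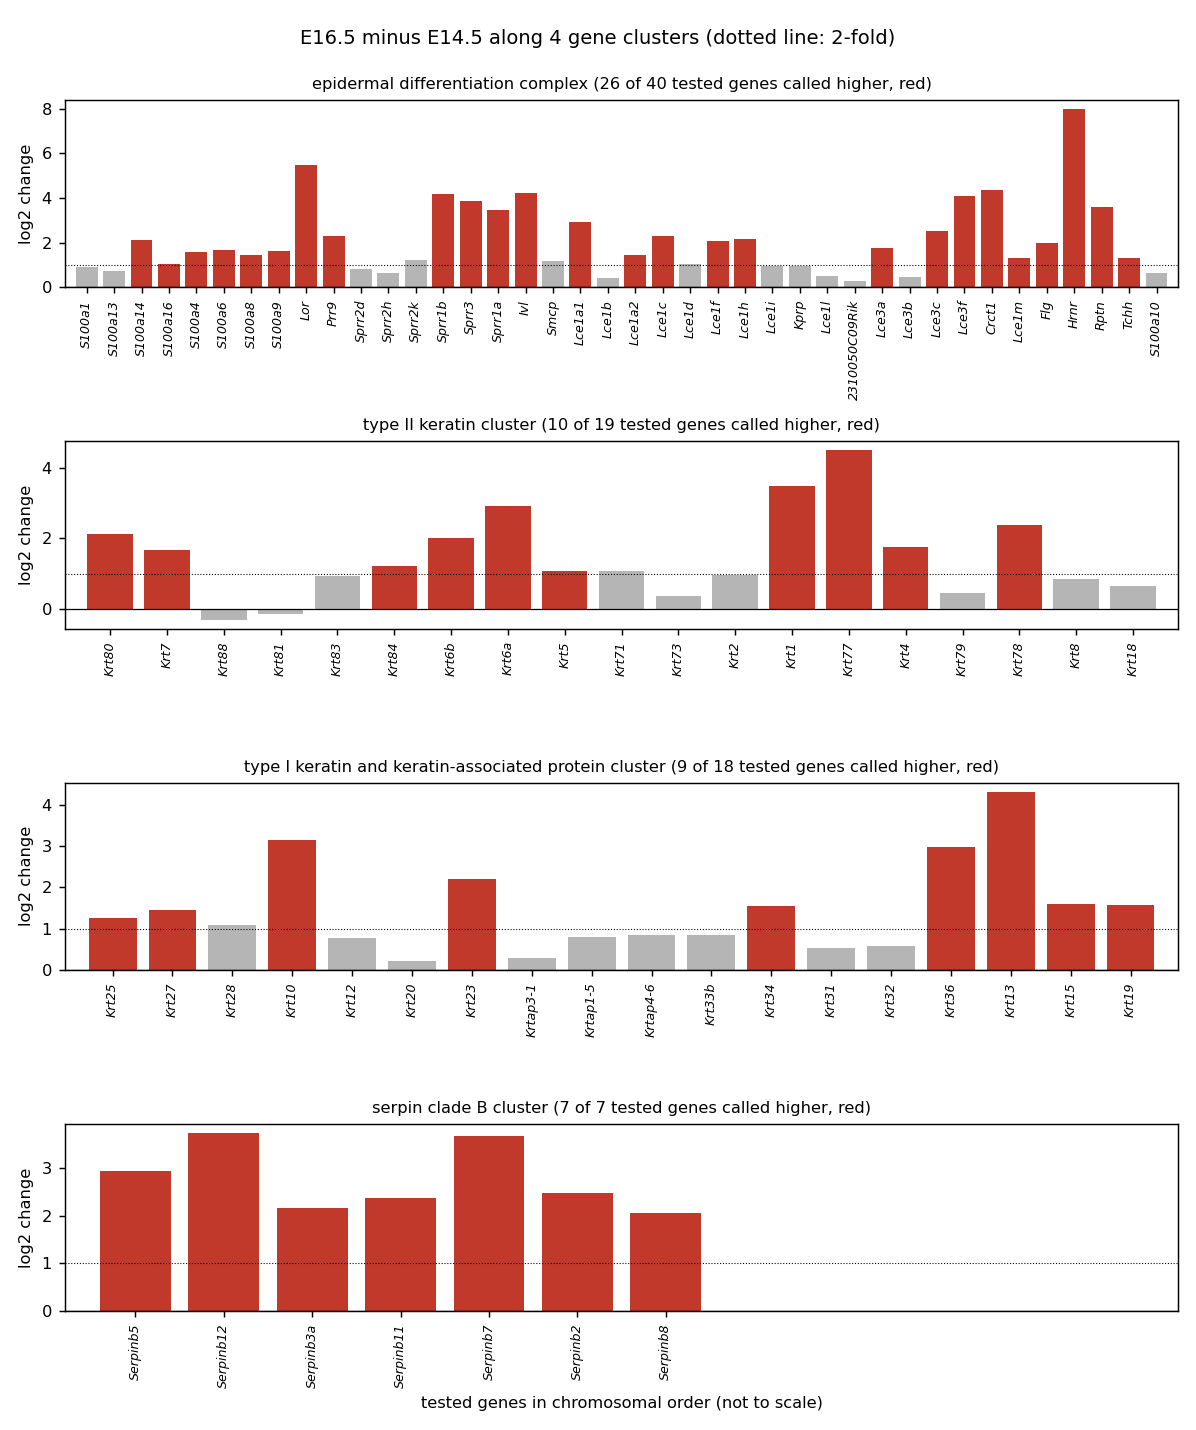
Change from E14.5 to E16.5 (log2, E16.5 minus E14.5) of the tested genes of 4 clusters in chromosomal order, drawn at equal spacing. Red bars are genes called higher at E16.5, grey bars genes not called, and the dotted line is a 2-fold difference. The epidermal differentiation complex has its tallest bars at Hrnr (8.00) and Lor (5.49), with uncalled Lce genes between called genes.

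The interval from E14.5 to E16.5 was also compared with the equal intervals before and after it, by testing the difference between steps in the same limma fit. The step exceeded that from E12.5 to E14.5 for 63 genes (0.449% of those tested) and was smaller for 22. It exceeded the step from E16.5 to E18.5 for 110 genes (0.783%) and was smaller for 50. Steps carry their sign, so these counts do not rank the size of a change, and a steeper fall counts as a smaller step. The embryonic globin Hbb-y fell to E16.5 and fell further to E18.5. Its step to E16.5 therefore counts as exceeding the step after (3.28 ± 0.35, adjusted p = 2e-05) and as smaller than the step before (adjusted p = 0.007). Of the 506 genes that rose, 55 exceeded the step before, 75 the step after and 32 both, and 9 of these 32 stand in a skin list. The counts were 23 to 50 for the step before and 38 to 82 for the step after when any 1 of the 4 arrays was left out, with the lowest without the E14.5 array numbered 2 and without the E16.5 array numbered 2. Hrnr, hornerin, had the largest difference from the step before, and its signal was 1.34 and 0.48 at E12.5, 16.9 and 19.2 at E14.5, 11003 and 11343 at E16.5, and 9973 and 10394 at E18.5. Its step exceeded the step before by 7.28 ± 0.47 (adjusted p = 2.9e-08) and the step after by 8.13 ± 0.47 (adjusted p = 4e-09). Lor had 258 and 216 at E12.5, 203 and 287 at E14.5, 9894 and 14577 at E16.5, and 14003 and 15396 at E18.5. The E12.5 and E14.5 arrays overlapped, and so did those of E16.5 and E18.5. Sprr1b, a small proline-rich protein of the envelope, read 502 and 610.2 at E16.5 and 8.14 and 4.40 at E14.5, while E18.5 read 359.9 and 383. Krt77, a type II keratin, had 6013 and 6224 at E16.5 against 220.2 and 262 at E14.5 (4.53 ± 0.45, adjusted p = 1e-06) and 201 and 222 at E18.5.

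**Figure D4:**
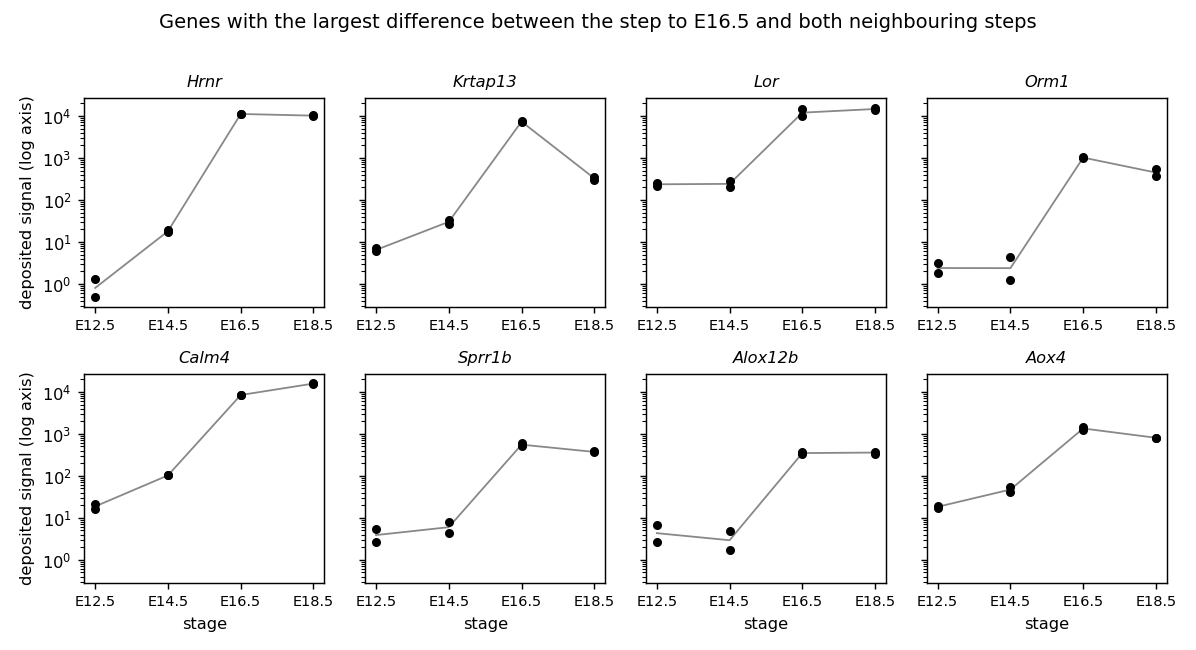
Deposited signal (log axis) by stage, in order of age from E12.5 to E18.5, of the 8 named genes out of 32 whose step to E16.5 exceeded both neighbouring steps; points are single arrays and lines join the geometric means. All 8 climb steeply between E14.5 and E16.5, and Krtap13 drops afterwards (298 and 359.8 at E18.5). Signals under about 25.9, the value added before taking logs, carry little weight in the fit.

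In the lung, surfactant and alveolar genes rose in 6 of 15 tested members (median 1.12). Sftpc, the surfactant protein made only by alveolar epithelium, had 5656 and 5708 at E16.5 against 494 and 494 at E14.5 (3.46 ± 0.42, adjusted p = 1.6e-05). The replicates were nearly equal in both stages. Sftpb, which spreads the surfactant film, had 416 and 449.8 at E16.5 against 155 and 131 at E14.5 (1.45 ± 0.33, adjusted p = 0.0076), with adjusted p up to 0.072 when 1 array was left out. Ager, a receptor abundant on flat alveolar cells, had 106 and 166 at E16.5 against 24.6 and 9.70 at E14.5 (1.91 ± 0.37, adjusted p = 0.002), but 0.98 and no call with a pseudocount 4 times larger. Hopx, a homeodomain protein of those cells and of heart and skin, had 3457 and 3637 at E16.5 against 881 and 1073 at E14.5 (1.84 ± 0.13, adjusted p = 1.5e-08). Sftpd, a collectin of innate defence, was not called at 163 and 202 at E16.5 against 76.5 and 68.0 at E14.5 (1.08 ± 0.50, adjusted p = 0.20).

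Of 14 tested airway genes 5 rose (median 1.16). Scgb3a2, a secretoglobin of the developing conducting airways, had 1352 and 1331 at E16.5 against 87.6 and 99.6 at E14.5 (3.52 ± 0.33, adjusted p = 4.7e-07). Scgb1a1, the secretoglobin of mature club cells, was still near the floor, with 21.0 and 19.2 at E16.5 against 10.6 and 3.88 at E14.5 (0.48 ± 0.41, adjusted p = 0.55), and reached 2706 and 2098 at E18.5. Cyp2f2, a monooxygenase of club cells, had 589 and 578 at E16.5 against 184 and 167 at E14.5 (1.60 ± 0.32, adjusted p = 0.0025), and was not called with a pseudocount 4 times smaller. Foxj1, the factor of motile cilia, had overlapping groups at 84.3 and 139 at E16.5 and 74.4 and 124 at E14.5 (0.14 ± 0.35, adjusted p = 0.88).

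Of the liver's secreted proteins, Alb, albumin, the main plasma protein, had 25581 and 39236 at E16.5 against 20221 and 32405 at E14.5 (0.31 ± 0.36, adjusted p = 0.69), and Afp, the fetal counterpart, had 22756 and 39566 at E16.5 against 19938 and 33823 at E14.5 (0.21 ± 0.28, adjusted p = 0.73). Their groups overlapped, and both were higher on the arrays numbered 2. Both lay near the top of the signal range, as the array maxima were 30741 and 51397 at E16.5 and 26357 and 43913 at E14.5. Whether signals this high could still show a rise was not tested. In all, 7 of 27 tested plasma proteins rose (median 0.84). Orm1, an acute-phase glycoprotein, had 1064 and 979 at E16.5 against 4.45 and 1.27 at E14.5 (5.19 ± 0.42, adjusted p = 8.1e-08). Hp, haptoglobin, which binds free haemoglobin, had 1047 and 982 at E16.5 against 208 and 229 at E14.5 (2.09 ± 0.26, adjusted p = 2.1e-05). Apoc3, an apolipoprotein that slows triglyceride clearance, changed by 1.95 ± 0.28 (adjusted p = 9.9e-05).

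Liver metabolic enzymes rose in 9 of 23 tested genes (median 0.98), 2 enzymes of the urea cycle among them. Cps1, which fixes ammonia at the entry of that cycle, had 1809 and 1968 at E16.5 against 271 and 235 at E14.5 (2.78 ± 0.34, adjusted p = 1.8e-05), and Arg1, arginase, which releases urea at its end, had 1132 and 1109 at E16.5 against 176 and 220.3 at E14.5 (2.36 ± 0.15, adjusted p = 4.2e-09). Uox, urate oxidase, changed by 2.40 ± 0.28 (adjusted p = 1.1e-05). Fbp1, a gluconeogenic phosphatase, had 893 and 981 at E16.5 against 79.0 and 97.0 at E14.5 (3.08 ± 0.38, adjusted p = 1.9e-05). Other enzymes of glucose release were not called. G6pc, which frees glucose from its phosphate, had 10.1 and 2.79 at E16.5 against 7.35 and 10.4 at E14.5 (-0.11 ± 0.49, adjusted p = 0.93), and Pck1, which commits carbon to glucose, had 42.0 and 59.6 at E16.5 against 31.6 and 34.2 at E14.5 (0.37 ± 0.52, adjusted p = 0.74). At E18.5 the signals were 426 and 601 for G6pc and 691 and 638 for Pck1.

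In the gut, enterocyte genes rose in 16 of 25 tested members (median 1.59, against -0.02 over all genes tested), and all 25 were higher in the fit. Apoa4, an apolipoprotein of fat absorption that the liver also makes, had 1015 and 867 at E16.5 against 24.4 and 17.3 at E14.5 (4.37 ± 0.44, adjusted p = 1.4e-06). Fabp2, the intestinal fatty acid binding protein, had 1393 and 1070.2 at E16.5 against 125 and 123 at E14.5 (3.06 ± 0.27, adjusted p = 2.3e-07). Lct, lactase, the milk sugar enzyme of the brush border, had 333 and 333 at E16.5 against 24.5 and 41.3 at E14.5 (2.62 ± 0.37, adjusted p = 9.1e-05). Among 18 tested genes of secretory gut cells 5 rose (median 0.63). Agr2, which folds mucins, had 229.5 and 265 at E16.5 against 3.66 and 8.79 at E14.5 (3.09 ± 0.38, adjusted p = 1.6e-05), and Tff3, the trefoil peptide of goblet cells, had 938 and 1072 at E16.5 against 139.7 and 127 at E14.5 (2.69 ± 0.50, adjusted p = 0.0013). Muc2, the gel-forming mucin itself, had 89.1 and 132 at E16.5 against 44.8 and 60.2 at E14.5 and was not called (0.79 ± 0.55, adjusted p = 0.44). In the stomach, where 2 of 9 tested genes rose, Cym, the milk-clotting protease chymosin, had 1579 and 1557 at E16.5 against 301 and 229.8 at E14.5 (2.46 ± 0.29, adjusted p = 1.1e-05), and the surface-cell peptide Tff1 had overlapping groups (0.26 ± 0.43, adjusted p = 0.79).

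In the pancreas, of 20 tested acinar genes 13 rose (median 1.90, against -0.02 over all genes tested), and all 20 were higher in the fit. Cela2a, an elastase, had 1306 and 1253 at E16.5 against 2.79 and 17.0 at E14.5 (5.22 ± 0.36, adjusted p = 8e-09). Ctrb1, chymotrypsinogen, had 4041 and 3927 at E16.5 against 128 and 158 at E14.5 (4.58 ± 0.40, adjusted p = 2.2e-07). Cpa1, a carboxypeptidase that appears early in acinar cells, had 2296 and 2133 at E16.5 against 331 and 248 at E14.5 (2.84 ± 0.35, adjusted p = 1.8e-05). Of 10 tested islet genes none was called. Ins2, insulin, had 384 and 364 at E16.5 against 145 and 68.9 at E14.5 (1.65 ± 0.58, adjusted p = 0.079), and Gcg, glucagon, had 247 and 239 at E16.5 against 189 and 163 at E14.5 (0.42 ± 0.43, adjusted p = 0.63). The difference between the acinar and islet groups was not tested. In other glands, none of 6 pituitary hormone genes, 12 thyroid, adrenal and gonad genes or 17 kidney genes was called, while 2 of 8 salivary and tear gland genes rose. Smgc, a mucin-like protein of the salivary glands, had 132 and 126 at E16.5 against 2.69 and 4.27 at E14.5 (2.40 ± 0.35, adjusted p = 0.00014). In the kidney list Slc12a1, the salt transporter of the loop of Henle, had 120.2 and 129 at E16.5 against 32.4 and 30.8 at E14.5 (1.39 ± 0.48, adjusted p = 0.076).

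In skeletal muscle, of 33 tested contractile genes 11 rose (median 0.79), and of 18 muscle energy genes 9 rose (median 0.87). Tnni2, the inhibitory troponin of fast fibres, had 8393 and 8202 at E16.5 against 1584 and 1509 at E14.5 (2.40 ± 0.41, adjusted p = 0.00057), and Tnnt3, its tropomyosin-binding partner, changed by 2.10 ± 0.27 (adjusted p = 2.1e-05). Myosin heavy chains follow each other with age. Myh8, the perinatal heavy chain, had 7774 and 6569.8 at E16.5 against 2777 and 2499.9 at E14.5 (1.43 ± 0.27, adjusted p = 0.0014), and was not called with a pseudocount 4 times smaller. Myh3, the embryonic heavy chain, had 10392 and 11384 at E16.5 against 7328 and 7397 at E14.5 (0.56 ± 0.21, adjusted p = 0.11), and Myh1, an adult fast chain, had 104 and 126 at E16.5 against 110.3 and 117 at E14.5 (0.01 ± 0.38, adjusted p = 0.99). Ckm, the creatine kinase of muscle, had 9748 and 9998 at E16.5 against 1366 and 1379 at E14.5 (2.82 ± 0.46, adjusted p = 0.00036), and its mitochondrial relative Ckmt2 had 1066 and 1028 at E16.5 against 81.0 and 63.5 at E14.5 (3.46 ± 0.41, adjusted p = 1.1e-05). Of 11 tested myogenic regulators 1 rose (9.1%, against 3.6% of all genes tested, median 0.10). This was Myf6, a factor of maturing fibres, with 547 and 494 at E16.5 against 176 and 173 at E14.5 (1.45 ± 0.35, adjusted p = 0.01), a call that ended without any 1 of the 4 arrays (adjusted p 0.06 to 0.07). Not called were Myod1 and Myog, which commit cells to muscle. Myod1 had 521 and 589.9 at E16.5 against 612 and 863 at E14.5 (-0.38 ± 0.34, adjusted p = 0.57), and Myog, myogenin, had overlapping groups (0.10 ± 0.27, adjusted p = 0.90). Of 19 tested heart genes 4 rose, and Myl2, the ventricular myosin light chain, had 3446 and 3411 at E16.5 against 2502 and 2780.4 at E14.5 (0.38 ± 0.22, adjusted p = 0.33). None of 11 smooth muscle genes was called.

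In fat, of 21 tested adipocyte genes 12 rose (median 1.26). Adipoq, the hormone adiponectin, which is made by fat cells, had 1865 and 2142 at E16.5 against 59.7 and 54.1 at E14.5 (4.61 ± 0.36, adjusted p = 4.1e-08). Fabp4, the fatty acid binding protein of fat cells and small vessels, had 7403 and 8973 at E16.5 against 883 and 938 at E14.5 (3.13 ± 0.31, adjusted p = 1.2e-06). Car3, a carbonic anhydrase of fat and slow muscle, had 18814 and 20985 at E16.5 against 3329 and 2458 at E14.5 (2.79 ± 0.15, adjusted p = 3.3e-10). Of 10 tested brown fat genes 3 rose: Cidea, and Cox7a1 and Cox8b, which are also counted in the muscle energy list. Cidea, a lipid droplet protein abundant in brown fat, had 545 and 573 at E16.5 against 80.9 and 65.6 at E14.5 (2.56 ± 0.43, adjusted p = 0.00051), but Ucp1, the uncoupling protein that makes the heat, had 13.6 and 41.8 at E16.5 against 7.22 and 16.8 at E14.5, with overlapping groups (0.46 ± 0.49, adjusted p = 0.65), and read 9667 and 9821 at E18.5. None of 15 tested fatty acid oxidation genes was called, with a median of 0.52.

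In the skeleton, of 19 cartilage genes 1 rose (5.3%, median -0.02), and of 13 bone genes 1 rose (7.7%, median 0.33). The share of all genes tested that rose was 3.6%. Col2a1, the main cartilage collagen, had 5927 and 5806 at E16.5 against 5317 and 5483 at E14.5 (0.12 ± 0.37, adjusted p = 0.91). Other skeletal genes were called. Mmp13, the collagenase of the last hypertrophic cells and of osteoblasts, had 1669 and 1885 at E16.5 against 92.2 and 74.5 at E14.5 (4.05 ± 0.34, adjusted p = 1.1e-07). Dmp1, a matrix protein of young osteocytes, had 979 and 918 at E16.5 against 279.9 and 289 at E14.5 (1.65 ± 0.33, adjusted p = 0.0023), and was not called with a pseudocount 4 times smaller. Col10a1, the collagen of hypertrophic cartilage, had 1104 and 779 at E16.5 against 661 and 538 at E14.5 (0.62 ± 0.37, adjusted p = 0.36). Ctsk, the collagen-cutting cathepsin of osteoclasts, had 1983 and 1919 at E16.5 against 835 and 937 at E14.5 (1.12 ± 0.23, adjusted p = 0.0033), and its call ended without the E14.5 array numbered 1 (adjusted p = 0.052). In connective tissue, 2 of 28 collagen and matrix genes and 1 of 10 elastic fibre genes rose. Mfap5, a microfibril protein, had 1523 and 1452 at E16.5 against 395 and 400.5 at E14.5 (1.84 ± 0.34, adjusted p = 0.0013). Col1a1, the chain of fibrillar collagen in bone and dermis, was not called (0.39 ± 0.21, adjusted p = 0.29).

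In the neutrophil list 9 of 18 genes rose (median 1.38). Ngp, a protein of secondary granules, had 3508 and 3647 at E16.5 against 783 and 822 at E14.5 (2.12 ± 0.46, adjusted p = 0.0046), and Camp, the cathelicidin stored in the same granules, had 1797 and 1602 at E16.5 against 348 and 437 at E14.5 (2.05 ± 0.37, adjusted p = 0.001). Mpo, myeloperoxidase of the primary granules, had 1654 and 1606 at E16.5 against 1867 and 1839 at E14.5 (-0.18 ± 0.33, adjusted p = 0.81), and Elane, an elastase of the same granules, had 783 and 480.4 at E16.5 against 491 and 476 at E14.5 (0.33 ± 0.48, adjusted p = 0.76). The difference between these granule groups was not tested. S100a8 and S100a9, calcium-binding proteins of neutrophils that keratinocytes can also make, changed by 1.45 ± 0.43 (adjusted p = 0.035) and 1.63 ± 0.33 (adjusted p = 0.0028), and S100a8 was not called without any 1 of the 4 arrays (adjusted p 0.11 to 0.20). The calls of Ngp, S100a8 and S100a9 also ended with a pseudocount 4 times smaller. Stfa3, a cysteine protease inhibitor of myeloid cells, had 6344 and 7236 at E16.5 against 617 and 267 at E14.5 (3.97 ± 0.32, adjusted p = 5.4e-08). The part of skin cells in the values of genes that both express was not tested.

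Mast cell genes rose in 5 of 7 tested members (median 2.26). Mcpt4, a chymase of connective tissue mast cells, had 268 and 184 at E16.5 against 3.43 and 8.28 at E14.5 (2.97 ± 0.37, adjusted p = 2.1e-05). Cma1, another chymase, had 2418 and 2318 at E16.5 against 469 and 441 at E14.5 (2.32 ± 0.46, adjusted p = 0.0022), and was not called with a pseudocount 4 times smaller. Hdc, which makes histamine, had 1337 and 1751 at E16.5 against 244 and 203 at E14.5 (2.65 ± 0.35, adjusted p = 3.6e-05). These 3 genes were named for the size of their rise on these same arrays, so the separation of their groups is no further support. Macrophage genes rose in 1 of 18 (5.6%, against 3.6% of all genes tested, median 0.47). Csf1r, the growth factor receptor of that lineage, had 3005 and 3067 at E16.5 against 2511 and 1941 at E14.5 (0.46 ± 0.24, adjusted p = 0.28). Of 10 tested lymphocyte genes 2 were called, Rag1 and Zap70, at signals that differed between replicates: Zap70, a kinase of the T cell receptor, had 316 and 1008 at E16.5 against 41.3 and 239 at E14.5 (2.16 ± 0.66, adjusted p = 0.042, up to 0.48 when 1 array was left out). Rag1, the recombinase of receptor genes, changed by 1.52 ± 0.43 (adjusted p = 0.025) and was not called without any 1 array (adjusted p 0.087 to 0.15). Neither was called with a pseudocount 4 times smaller.

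The embryonic globins fell in 3 of 3 tested genes. Hba-x, the zeta chain of primitive red cells, had 1189 and 1241 at E16.5 against 9197 and 10116 at E14.5 (-2.96 ± 0.41, adjusted p = 5.5e-05). Hbb-bh1 had 529 and 481 at E16.5 against 2069 and 2231 at E14.5 (-2.04 ± 0.29, adjusted p = 8.6e-05), and Hbb-y had 6835 and 7806 at E16.5 against 22578 and 37806 at E14.5 (-2.0 ± 0.20, adjusted p = 1.4e-06). The probe sets of these beta-like genes may also bind related globins. Among other red cell genes, of 22 tested genes of definitive erythroid cells none was called (median -0.08), and Alas2, which starts haem synthesis in erythroid cells, had 7682 and 7946 at E16.5 against 5273 and 5764 at E14.5 (0.50 ± 0.26, adjusted p = 0.25). None of 12 stem and progenitor genes of the fetal liver was called (median -0.22).

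Of the other falls, Hmga2, a chromatin protein of growing fetal tissue that the let-7 microRNAs repress, had 796 and 673 at E16.5 against 2674 and 2138 at E14.5 (-1.67 ± 0.22, adjusted p = 4.3e-05). Igf2bp1, an mRNA-binding protein of fetal cells, had 572 and 524 at E16.5 against 939 and 960.4 at E14.5, a difference under 2-fold (-0.77 ± 0.12, adjusted p = 0.00016). Igf2, the fetal growth factor, was not called and had overlapping groups at 15281 and 18514 at E16.5 against 13832 and 19658 at E14.5 (0.03 ± 0.14, adjusted p = 0.94). Sp5, a target of Wnt signalling, had 16.8 and 18.7 at E16.5 against 116 and 139.5 at E14.5 (-1.81 ± 0.29, adjusted p = 0.00037). Its E16.5 signals lie below the pseudocount, and with a pseudocount 4 times larger the change was -0.93 and was not called. Lhx1, a homeodomain factor of kidney precursors and of neurons, had 133 and 143 at E16.5 against 419 and 375 at E14.5 (-1.37 ± 0.20, adjusted p = 0.00016).

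In the nervous system, of 19 tested neural progenitor genes 2 fell (median -0.31), while 0.178% of all genes tested fell. Neurog2, which starts neuron formation, had 142 and 198 at E16.5 against 488 and 389 at E14.5 (-1.25 ± 0.24, adjusted p = 0.0018), but -0.99 and no call with a pseudocount 4 times larger. Nhlh2, a helix-loop-helix factor of newborn neurons, had 187 and 204 at E16.5 against 506 and 434 at E14.5 (-1.16 ± 0.30, adjusted p = 0.015), but was not called without any 1 of the 4 arrays (adjusted p 0.059 to 0.13) or with either other pseudocount. Outside the lists Dcc, a netrin receptor that guides axons, had 359 and 365 at E16.5 against 832 and 864 at E14.5 (-1.17 ± 0.17, adjusted p = 0.00012), and was not called with the mean of its probe sets. None of 31 neuron and synapse genes (median -0.09), 15 receptor subunits (-0.05) or 17 glial genes (0.10) was called. Tubb3, the tubulin of neurons, had 1957 and 2151 at E16.5 against 2663 and 3264 at E14.5, a difference under 2-fold (-0.52 ± 0.13, adjusted p = 0.012). Values of whole embryos are relative to all other tissue, so growth of non-neural organs and loss of neural RNA cannot be told apart here.

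In 3 further lists no gene was called, while most members were lower in the fit. Of 33 tested genes of DNA replication and mitosis 32 were lower in the fit and none was called (median -0.26), and Mki67, the antigen of dividing cells, had 6859 and 6256 at E16.5 against 7577 and 7062 at E14.5 (-0.16 ± 0.10, adjusted p = 0.36). Of 29 tested Hox genes 24 were lower (median -0.46), and of 25 limb and pharyngeal arch factors 22 (median -0.57). Twist1, a factor of limb and skull mesenchyme, had 422 and 549 at E16.5 against 657 and 758 at E14.5 (-0.53 ± 0.13, adjusted p = 0.011), again under 2-fold. All genes of a list share the same 4 arrays, so the number leaning 1 way is no count of independent observations.

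Glucocorticoids ripen many organs before birth. Of 16 tested genes of the glucocorticoid axis 2 were called. Zbtb16, a zinc finger protein that glucocorticoids induce in many tissues, had 267 and 311 at E16.5 against 120.2 and 96.7 at E14.5 (1.23 ± 0.18, adjusted p = 0.00012), but was not called with the mean of its probe sets (0.58) or with a pseudocount 4 times larger (0.89). Hsd11b1, which regenerates active glucocorticoid, changed by 1.5 ± 0.40 (adjusted p = 0.018), a call lost without any 1 array (adjusted p 0.078 to 0.13) and with a pseudocount 4 times smaller. Fkbp5, a sensitive target of the receptor, had 989.7 and 1458 at E16.5 against 803 and 799.6 at E14.5 (0.57 ± 0.14, adjusted p = 0.011), under 2-fold, and the receptor Nr3c1 was not called (0.33 ± 0.31, adjusted p = 0.58). Of 13 immediate early and heat shock genes 3 rose: Hspa1b, the inducible chaperone, had 3331 and 3192 at E16.5 against 1005 and 1030.2 at E14.5 (1.66 ± 0.28, adjusted p = 0.00046), its sister gene Hspa1a changed by 1.32 ± 0.26 (adjusted p = 0.0021, but 0.050 without the E14.5 array numbered 1), and Hspb1, a small chaperone that keratinocytes also hold, had 7799.9 and 7785 at E16.5 against 3119 and 3412 at E14.5 (1.25 ± 0.20, adjusted p = 0.00032). Fos, which responds within minutes to handling, had 834 and 755 at E16.5 against 398 and 377 at E14.5, just under 2-fold (0.99 ± 0.24, adjusted p = 0.012), and Egr1, another immediate early gene, had overlapping groups (0.10 ± 0.25, adjusted p = 0.88). How the embryos were handled at each stage is not given in the sources used here, and the part of handling in these values was not tested.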

How the data were processed

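Total RNA of pooled whole embryos was hybridised to Affymetrix Mouse Genome 430 2.0 arrays, and the deposited values are linear signal intensities made with MAS5, per the submitters' processing notes, whose version is not given in the sources used here. Of 45101 probe sets, 34945 carried 1 gene symbol, 932 several and 9160 none, and 64 were controls. Each gene was read by the probe set with the highest mean, and 14044 of 18193 genes above the array median on at least 2 arrays were tested. Differences of log2(signal + 25.9) were tested with limma 3.58.1 in R 4.3.3. The fit had 1 mean for each stage over all 20 arrays. Its 12 residual degrees of freedom were pooled over all stages, and most came from stages other than E14.5 and E16.5. The 25.9 is the median of the 25th percentile of signal across all 20 arrays. That percentile was 43.9 to 53.2 for E14.5 and E16.5, 40.8 to 53.2 from E12.5 onwards and 18.6 to 28.4 at younger stages. The median signal was 156 to 178 from E12.5 onwards and 67.2 to 91.1 at younger stages. The fit, the filter and the pseudocount drew on all of them. Calls needed an adjusted p under 0.05 and a 2-fold change.

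On simulated data for E16.5 against E14.5 with 14044 genes, 40 of 50 rises and 40 of 50 falls of 1.5 (log2) were called, all 50 of each size at 3.0, and 3 unchanged genes. Genes were named by a rule: the 12 largest rises and 12 largest falls without overlap, up to 4 called members of each list, preset anchor genes of the lists, and the 8 genes whose step most exceeded both neighbouring steps. The largest rises, falls and steps leave out uncharacterised loci and probe sets with the suffixes s_at and x_at, which may bind related genes. Exceptions are stated. The members and lists were chosen with earlier results of these data known. Replicate numbers were not taken as pairs. Alternatives covered scaling, pseudocount, filter, probe sets, arrays in the fit, a replicate block and each array left out.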

Additional observations from a re-analysis of the deposited data

Results flagged for a closer look

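The step from E14.5 to E16.5 exceeded both the step before and the step after it for 32 genes that rose, of which 8 are given here, leaving out uncharacterised loci and probe sets that may bind related genes, by limma contrasts between steps in the fit of all 20 arrays. Hrnr, hornerin, exceeded the step before by 7.28 ± 0.47 (SE, adjusted p = 2.9e-08) and the step after by 8.13 ± 0.47 (adjusted p = 4e-09). Krtap13, a keratin-associated protein, exceeded them by 6.24 ± 0.74 (adjusted p = 0.00011) and 11.42 ± 0.74 (adjusted p = 1.1e-08). For Lor, loricrin, the differences were 5.46 ± 0.42 (adjusted p = 2.8e-07) and 5.20 ± 0.42 (adjusted p = 3.2e-07). For Orm1, an acute-phase glycoprotein, they were 5.17 ± 0.73 (adjusted p = 0.00078) and 6.33 ± 0.73 (adjusted p = 4.4e-05).

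Calm4, a calmodulin-like protein of skin, exceeded the step before by 4.51 ± 0.81 (adjusted p = 0.0075) and the step after by 5.13 ± 0.81 (adjusted p = 0.0013). Sprr1b, a small proline-rich protein, exceeded them by 4.08 ± 0.66 (adjusted p = 0.0032) and 4.72 ± 0.66 (adjusted p = 0.00039). Alox12b, the epidermal lipoxygenase, gave 3.75 ± 0.71 (adjusted p = 0.01) and 3.65 ± 0.71 (adjusted p = 0.0085). Aox4, an aldehyde oxidase, gave 3.5 ± 0.68 (adjusted p = 0.013) and 4.95 ± 0.68 (adjusted p = 0.00035). The 8 genes were picked for their rise on these same arrays, so the separation of their E16.5 and E14.5 arrays is no further support.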

How the results depend on the processing

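No named gene that was called reversed its direction in any of 14 alternative settings, where it was tested. Of the 127 called named genes tested in every setting, 83 kept the call in all; the other 19 were left out by the filter at the 75th percentile, and 4 of them kept the call in the settings that tested them. A pseudocount 4 times smaller ended 36 calls, more than any other setting. Of 506 rises, 335 were counted with that pseudocount, 848 with no minimum fold, and 332 to 367 without any 1 of the 4 arrays. Of 25 falls, 12 were counted with a pseudocount 4 times larger, 67 with every probe set as a feature, 594 with no minimum fold, and 18 to 40 without any 1 array. The step exceeded the step before in 63 genes, against 108 after quantile normalization, 201 in a fit of the 4 stages from E12.5 to E18.5 alone and 23 to 50 without any 1 array. It exceeded the step after in 110 genes, against 184, 283 and 38 to 82 in the same settings. Called named genes numbered 114 to 121 and called list members 152 to 175 without any 1 array, against 146 and 208. The medians of 10 lists, between -0.06 and 0.43, changed sign in some setting, islet genes (0.43) with the filter at the 75th percentile. The cause of these changes was not tested.

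Same-numbered arrays of E16.5 and E14.5 deviated together with a correlation of 0.13, against -0.05 to 0.03 for other pairs of stages. The labels do not say what a number marks, and the numbers were not used as pairs; whether the arrays numbered 2 share a handling step was not tested. With a replicate block, 524 genes rose and 27 fell, the step exceeded the step before in 71 genes and the step after in 125, 147 named genes and 213 list members were called, and no named gene lost its call. Groups of 2 arrays allow no search for outlying arrays, and signals near the pseudocount carry little information on fold.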

Other observations

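Some genes that rose between E14.5 and E16.5 were lower again at E18.5. Mal, a proteolipid of myelin and of epithelial membranes, had 1689 and 1389.5 at E16.5 against 152 and 161 at E14.5 (3.10 ± 0.33 (SE), adjusted p = 2.1e-06, limma), and read 522 and 480.0 at E18.5. Aox4, an aldehyde oxidase, had 1423 and 1269 at E16.5 against 54.3 and 40.9 at E14.5 (4.23 ± 0.39, adjusted p = 4.9e-07), and read 816 and 795 at E18.5. For Krt77, whose step exceeded the next by 9.22 ± 0.78 (adjusted p = 4.8e-07), the difference from the step before was 3.09 ± 0.78 and was not called (adjusted p = 0.088).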
